A study of Mus musculus with 8 samples.

Results

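Nr0b1, Nr5a2, Eras, Phc1 and Fgf4 are 5 genes of the pluripotency network whose signal was lower in mouse pre-iPSCs after siRNA against Cbx3. They were chosen by that fall, from Cbx3 arrays set against control arrays, and they are 5 of 18193 genes with a probe set of their own. All 11 probe sets annotated to them, of 45101 on the array, are described here. Fgf4 and Nr5a2 have 4 probe sets each, and Nr0b1, Eras and Phc1 have 1 each. Pre-iPSCs are partly reprogrammed cells, halted on the way to induced pluripotency. They were kept for 3 days with siRNA and profiled on 8 arrays. Control arrays (n = 3) hold cells with siRNA to luciferase, a gene that mouse cells lack. 3XHMT arrays (n = 2) hold cells that received siRNA to Ehmt1, Ehmt2 and Setdb1 at once, the genes of 3 methyltransferases of histone H3 lysine 9. Cbx3 arrays (n = 3) hold cells with siRNA to Cbx3, which encodes HP1 gamma, a protein that binds methylated H3K9. All groups share the cell type and standard embryonic stem cell medium. The labels name no cell line or clone. They speak of biological replicates but do not state which step was repeated, so p-values measure the spread between these samples, which may be technical in part. The design sets knockdown of the enzymes of H3K9 methylation beside knockdown of a reader of the mark.

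The 5 genes act at different levels of the pluripotent state. Nr0b1 encodes Dax1, an orphan nuclear receptor without the usual DNA-binding domain, which represses other nuclear receptors, and Nr5a2 encodes the nuclear receptor LRH-1, which binds the regulatory DNA of Pou5f1 in mouse embryonic stem cells and is among the receptors that Dax1 can repress. Eras encodes a Ras-like GTPase of mouse embryonic stem cells that is active without a signal and acts through PI3 kinase, and Fgf4 encodes a secreted growth factor that these cells make themselves and that drives their ERK signalling. Phc1 encodes a polyhomeotic subunit of Polycomb repressive complex 1, a chromatin complex that silences developmental genes.

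The 8 array medians (log2) ranged from 5.87 to 5.90, and the correlation across probe sets within a group was 0.984 to 0.994. The middle of the 3 control probe sets for 18S ribosomal RNA parts the arrays into 3 tiers that the labels do not mention: a middle tier at 11.2 to 11.5 (control 1, Cbx3 1), a high tier at 12.6 to 12.8 (control 2, 3XHMT 1, Cbx3 2) and a low tier at 9.98 to 10.2 (control 3, 3XHMT 2, Cbx3 3). Of the 13 pluripotent cell markers 8 stood above the median in control, with Pou5f1 at 12.99. Nanog, Dppa4 and Lin28a were among those below the array medians, at 5.13, 5.52 and 4.58. Of the 15 fibroblast and feeder markers 5 stood above the median in control, among them S100a4 and Zeb1 (11.09 and 10.05), and Col1a1 and Thy1 did not (5.17 and 5.50). The brightest Cbx3 probe set, whose annotation also names the pseudogene Cbx3-ps5, fell by 1.23 on the log2 scale in the Cbx3 arrays (limma adjusted p = 0.0453). In 3XHMT arrays Setdb1 differed by -0.66 (adjusted p = 0.556), Ehmt2 by -0.58 and Ehmt1 by -0.33 (1.00 for each), so none of these transcripts passed the threshold of 0.05.

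The genes lie apart from each other, and their promoters were read to see what else they share. On GRCm38.p6, Nr0b1 lies at chrX:86191775-86195947, Nr5a2 at chr1:136842562-136960448, Eras at chrX:7924276-7928607, Phc1 at chr6:122317731-122340227 and Fgf4 at chr7:144861386-144865245. RefSeq windows of 300 bases, from 250 before to 50 after a transcript start, were available for all 5 genes, with 2 windows for Nr5a2. They are shown for the 4 genes with a match, as the DNA just upstream of transcripts that were lower together. Both strands were searched for AAGGTCA, a site of NR5A receptors and Esrrb, for TGCAAAT, most of the POU octamer, for ACAAAG, a SOX site, for GGGCGG, the GC box, and for CACGTG, the E box. None of these motifs overlaps another in these windows, and capitals mark the matches.
Nr0b1, chrX:86191525-86191824, plus strand: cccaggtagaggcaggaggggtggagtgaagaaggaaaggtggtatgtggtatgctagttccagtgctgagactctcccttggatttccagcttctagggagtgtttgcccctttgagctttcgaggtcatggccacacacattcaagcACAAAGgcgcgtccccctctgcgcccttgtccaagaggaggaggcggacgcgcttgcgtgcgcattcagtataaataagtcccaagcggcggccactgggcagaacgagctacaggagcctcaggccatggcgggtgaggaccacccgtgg
Nr5a2, chr1:136953581-136953880, minus strand: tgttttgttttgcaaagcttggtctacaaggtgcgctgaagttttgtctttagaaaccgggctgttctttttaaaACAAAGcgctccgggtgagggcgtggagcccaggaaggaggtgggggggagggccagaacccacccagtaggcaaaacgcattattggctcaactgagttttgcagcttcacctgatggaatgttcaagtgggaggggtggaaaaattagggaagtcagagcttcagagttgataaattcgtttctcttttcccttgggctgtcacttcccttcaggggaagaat
Eras, chrX:7928558-7928857, minus strand: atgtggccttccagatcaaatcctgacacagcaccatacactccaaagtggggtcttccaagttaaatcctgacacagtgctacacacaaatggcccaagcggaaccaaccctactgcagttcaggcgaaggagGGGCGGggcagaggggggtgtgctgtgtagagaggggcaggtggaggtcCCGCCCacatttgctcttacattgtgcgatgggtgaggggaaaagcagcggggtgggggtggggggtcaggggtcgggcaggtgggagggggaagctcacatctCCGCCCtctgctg
Fgf4, chr7:144861136-144861435, plus strand: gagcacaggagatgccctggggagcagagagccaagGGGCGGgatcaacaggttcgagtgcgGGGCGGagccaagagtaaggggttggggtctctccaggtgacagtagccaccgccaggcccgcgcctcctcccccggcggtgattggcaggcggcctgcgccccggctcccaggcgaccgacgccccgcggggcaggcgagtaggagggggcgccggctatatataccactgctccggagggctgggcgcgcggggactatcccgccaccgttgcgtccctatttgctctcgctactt
Nr0b1 and the downstream Nr5a2 window each hold ACAAAG, 101 and 175 bases before the start, which 18.7% of all 32851 windows hold. Eras holds 3 GC boxes, 116 and 67 bases before and 37 after the start, and Fgf4 holds 2, 214 and 188 bases before it, where 35.7% of windows hold at least 1. The other Nr5a2 window and the Phc1 window hold none of the motifs, and the NR5A site, the POU site and the E box, found in 4.72%, 4.02% and 7.15% of windows, are in none of the 6. Fgf4 is the richest in CG dinucleotides, with 28 against a median of 7 over all windows, while Nr0b1 has 14, Phc1 9, Eras 8 and the Nr5a2 windows 7 and 2. No motif searched is common to the 5 genes.

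Nr0b1 differed most among the 5 genes. Its probe set, 1417760_at, read 10.42, 9.58 and 9.14 in control 1 to 3 on the log2 scale, 10.67 and 10.08 in 3XHMT 1 and 2, and 7.75, 6.84 and 5.75 in Cbx3 1 to 3. Every Cbx3 array was below every control array, and Cbx3 3 stood below the array medians. The Cbx3 mean of 6.78 ± 1.00 (SD, n = 3) was well under the control mean of 9.71 ± 0.65 (SD, n = 3), a difference of -2.93 and 13.1% of control signal. In bulk RNA, fewer cells that express a gene and less RNA per cell cannot be told apart, here and for all values that follow. Among 18193 genes at their brightest probe set, this was the largest fall in mean from control to Cbx3. The 3XHMT arrays were on the other side: their mean of 10.38 ± 0.42 (SD, n = 2) was 0.66 ± 0.57 (SE) above control, though control 1 lay between them.

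**Figure D1:**
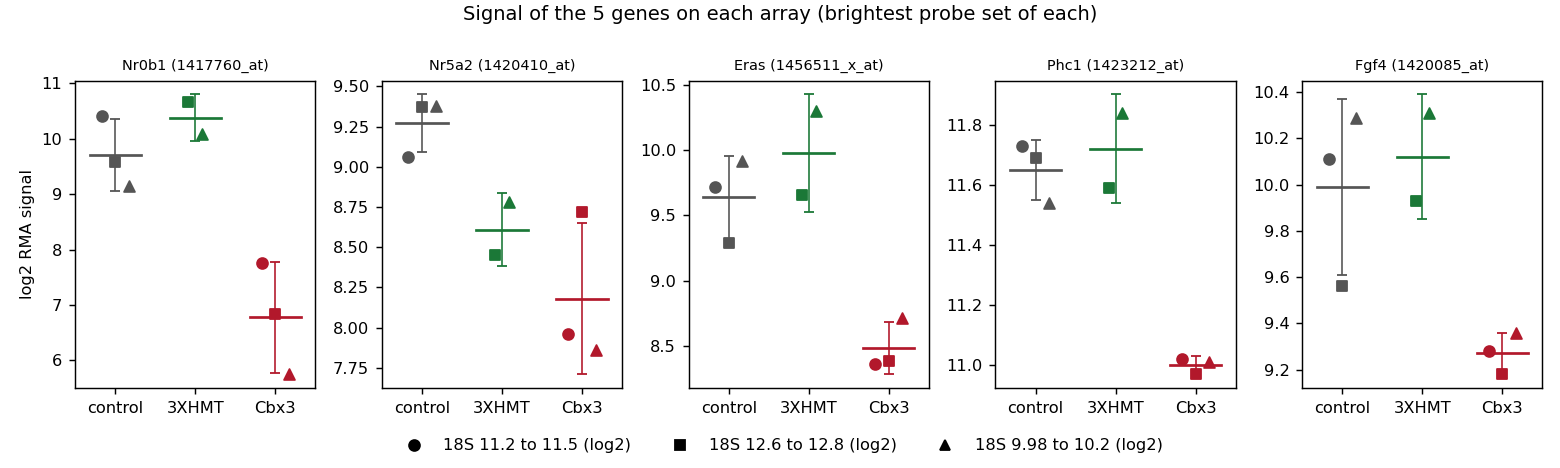
Log2 signal of Nr0b1, Nr5a2, Eras, Phc1 and Fgf4 on each of the 8 arrays at the brightest probe set of each gene, with group means (horizontal bars) and SD (error bars), on a separate y axis for each gene. Point shapes mark the 3 tiers of the 18S control probe set. The Cbx3 arrays lie below the control arrays in all panels, while the 3XHMT arrays lie below control for Nr5a2 alone.

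Nr5a2 was lower in both knockdowns. At its brightest probe set, 1420410_at, control arrays read 9.06, 9.37 and 9.38, 3XHMT arrays 8.45 and 8.78, and Cbx3 arrays 7.96, 8.72 and 7.86. Neither knockdown overlapped control, and Cbx3 2 lay between the 3XHMT arrays. Cbx3 arrays were at 46.9% of control and 3XHMT arrays at 63.4%. The probe set 1456521_at gave nearly the same values, with control arrays at 8.88 to 9.41, 3XHMT arrays at 8.25 and 8.85 and Cbx3 arrays at 7.71 to 8.44. 1449706_s_at read 7.06 to 7.52 in control, 6.88 and 6.89 in 3XHMT and 6.39 to 6.92 in Cbx3 arrays, and again neither knockdown overlapped control. 1449707_at, at 4.89 ± 0.25 (SD, n = 3) in control and so below the array medians, differed by -0.21 and -0.07 in Cbx3 and 3XHMT, with overlapping arrays.

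Eras was lower in the Cbx3 arrays alone. Its single probe set, 1456511_x_at, read 9.72, 9.29 and 9.92 in control, 9.66 and 10.30 in 3XHMT and 8.36, 8.38 and 8.71 in Cbx3 arrays. The Cbx3 arrays lay apart from all others at 44.9% of control, while 3XHMT 1 lay within the control range and 3XHMT 2 above it. The suffix x marks a probe set whose probes can match several transcripts, and no other probe set of Eras was there to set beside it.

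Phc1 had the narrowest spread of the 5. Control arrays read 11.73, 11.69 and 11.54 at 1423212_at, 3XHMT arrays 11.59 and 11.84, and Cbx3 arrays 11.02, 10.97 and 11.01. The Cbx3 arrays lay below all others at 63.7% of control, with an SD of 0.03 (n = 3). Of the 3XHMT arrays, 3XHMT 1 lay within the control range and 3XHMT 2 above it.

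Fgf4 differed by a like amount, and its probe sets did not all show it. At 1420085_at control arrays read 10.11, 9.56 and 10.29, 3XHMT arrays 9.93 and 10.31, and Cbx3 arrays 9.28, 9.18 and 9.36, which is 60.9% of control with no overlap. The probe sets 1420086_x_at and 1449729_at were drawn from the same deposited transcript sequence, and so are no independent check of it. They were at 62.4% and 64.0% of control in Cbx3 arrays, the latter from a control mean of 4.96 below the array medians. 1450282_at, which rests on the RefSeq transcript, read 6.94, 7.23 and 6.46 in control and 6.82, 6.81 and 6.36 in Cbx3 arrays. There the groups overlapped and the difference was -0.21. The size of the Fgf4 difference therefore depends on the probe set.

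Over the 11 probe sets, all 11 had a lower mean in Cbx3 than in control and 9 had no overlap between the groups. Of all probe sets, 5.84% were lower without overlap. At the brightest probe sets this held for 5 of 5 genes, against 6.78% of all genes. Since the genes were chosen by this contrast, nothing is read from these counts. The median difference was -0.69 over the 11 and 0.00 over all probe sets. The choice follows no numeric threshold. Among 45 other measured genes of the pluripotency network, Dppa2, Lifr and Nodal had mean differences of -0.85, -0.76 and -0.74, larger than those of Fgf4 (-0.71) and Phc1 (-0.65). Control SDs were 0.69, 0.14 and 0.76 for Dppa2, Lifr and Nodal, and 0.38 and 0.10 for Fgf4 and Phc1. The next were Tdgf1 (-0.52) and Dppa4 (-0.32).

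**Figure D2:**
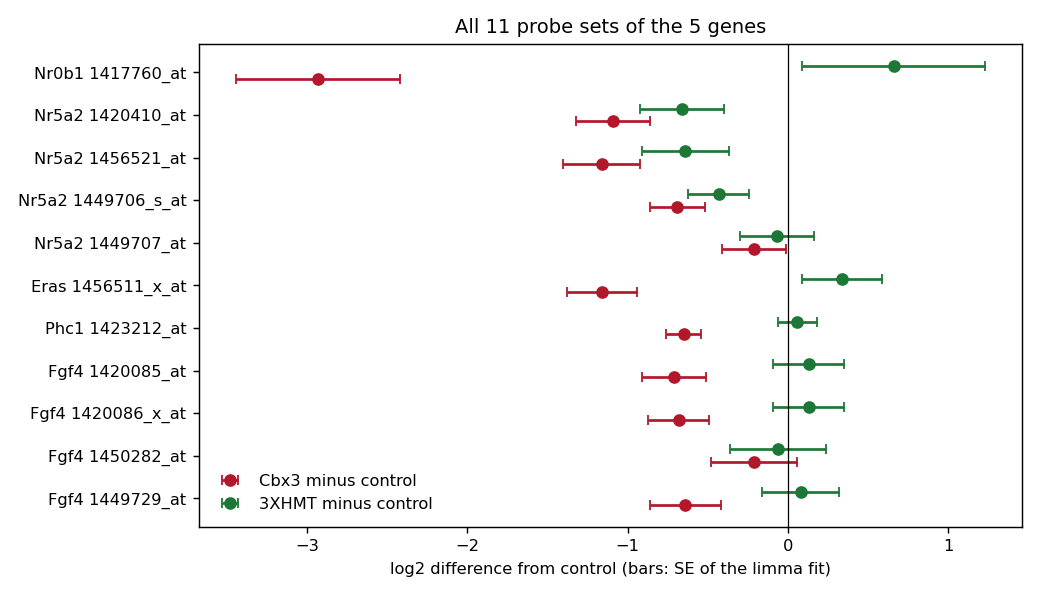
Difference from control on the log2 scale for each of the 11 probe sets in Cbx3 (red) and 3XHMT arrays (green), with the standard error of the limma fit. All red points lie left of 0. The green points of Nr5a2 lie left of 0 too, that of Nr0b1 lies right of it at 0.66, and the rest are within 0.34 of 0.

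The genes were chosen by their fall in Cbx3 arrays, and the difference of 3XHMT from control was tested. Earlier results of these data were known at the choice and may have included the 3XHMT values. The choice may therefore not be independent of this test. The same control arrays entered the choice of genes and this test. A choice of genes with control above Cbx3 can favour high control values, which would push 3XHMT minus control down. Of all probe sets 0.0555% passed an adjusted p of 0.05 in limma, and of the 11 here 0 passed (adjusted p = 1.00 for each). At an unadjusted p under 0.05 there were 2, both of Nr5a2, where 4.19% of all probe sets had one. Nr5a2 differed by -0.66 ± 0.26 (SE) at 1420410_at (limma unadjusted p = 0.0357), by -0.64 ± 0.27 at 1456521_at (0.0468) and by -0.43 ± 0.19 at 1449706_s_at (0.0545). These 3 of 11 probe sets, all of the same gene, were lower without overlap, against 6.81% of all probe sets. None of the 11 was higher without overlap, against 8.54%. For the other genes the 95% intervals of the difference included 0: -0.65 to 1.98 for Nr0b1, -0.23 to 0.90 for Eras, -0.22 to 0.34 for Phc1, and -0.38 to 0.65 for Fgf4 at its brightest probe set. That of Nr5a2 at its brightest probe set was -1.26 to -0.06.

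The tiers bear on Nr0b1 most. Its control and Cbx3 arrays stood in the same order by tier, and Cbx3 1, 2 and 3 differed by -2.67, -2.74 and -3.39 from the control array of the same tier. Against the control array of the same tier, 3XHMT 1 was 1.09 and 3XHMT 2 was 0.94 higher. With the tier as a block in the fit, the Cbx3 arrays, which chose the genes, also help to set the tier terms. In that fit Nr0b1 rose by 1.08 ± 0.17 (SE) in 3XHMT arrays (limma adjusted p = 0.0306), where 0.393% of all probe sets passed as higher and 0.699% in either direction. This call held in 4 of 8 fits that left out 1 array (adjusted p from 0.0176 to 0.209). It was lost without control 2 (0.209), control 3 (0.0661), 3XHMT 1 (0.121) or 3XHMT 2 (0.192). Within the tiers Nr5a2 differed by -0.92 and -0.60 in 3XHMT arrays at its brightest probe set, lower in both, and with the block by -0.76 ± 0.23 (adjusted p = 0.261). The remaining genes showed differences of 0.37 and 0.38 (Eras), -0.09 and 0.30 (Phc1) and 0.37 and 0.02 (Fgf4). With the block, 1 of the 11 probe sets passed in 3XHMT against control, that of Nr0b1.

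**Figure D3:**
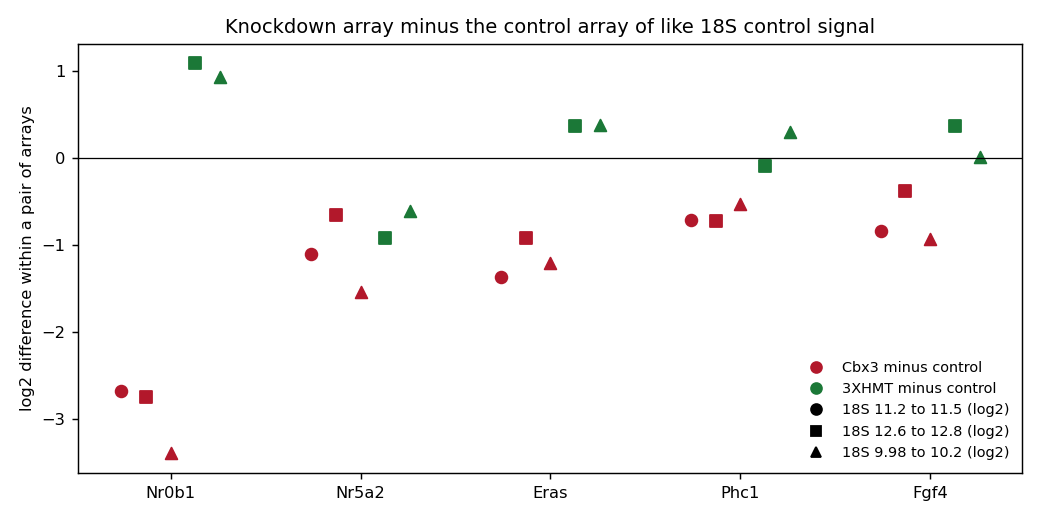
Each knockdown array minus the control array of the same 18S tier, on the log2 scale, at the brightest probe set of each gene. Red points are the 3 Cbx3 arrays and green points the 2 3XHMT arrays, with shapes for the tiers. All Cbx3 points are below 0, the 3XHMT points of Nr0b1 lie at 1.09 and 0.94, and those of Nr5a2 at -0.92 and -0.60.

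The 2 knockdowns were also set side by side. Nr0b1 was 12.1-fold higher in 3XHMT than in Cbx3 arrays, Eras 2.81-fold, Fgf4 1.80-fold, Phc1 1.64-fold and Nr5a2 1.35-fold. The 3XHMT and Cbx3 arrays did not overlap for 4 of the 5 genes and did for Nr5a2, and 13.2% of all genes were higher in 3XHMT without overlap. These values include the Cbx3 arrays that chose the genes, so they are given without a test.

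The genes also differed in how they varied between arrays of 1 group. Deviations from the group means of Eras and Fgf4 moved together over the 8 arrays (r = 0.92), with control 2 the lowest and control 3 the highest control array in both. Those of Nr0b1 went with Eras by -0.50 and with the others by -0.22 to 0.12. These are descriptions over 8 arrays that share tiers. Over the 8 log2 values with the groups left in, which the fall in Cbx3 arrays drives, the genes most like Nr0b1 among 11082 were Nt5e, an ectoenzyme that makes adenosine, with Frmd4a and Gas2 (r = 0.992, 0.992 and 0.990). For Eras they were Eif3i, Klhl42 and Srgap2 (0.986 to 0.982), for Phc1 Etfbkmt, Cth and Etv4 (0.979 to 0.975), and for Fgf4 Sqle, Tln2 and Hddc2 (0.988 to 0.982). Nr5a2 had less close companions in Vmac, Mthfd2l and Fam217b (0.948 to 0.921). Bzw2, Ap1s2 and Elavl2, which encodes a neuronal RNA-binding protein, had the highest mean correlation with the 5 (0.892, 0.879 and 0.878).

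The falls were next set beside the genes around each locus, taking the 3 nearest protein-coding genes with a probe set on each side. Of these 30 neighbours 0 passed in limma in either comparison with control, with 2 at an unadjusted p under 0.05 in Cbx3 arrays (Glod5, Pola1) and 1 in 3XHMT arrays (LTO1), against 9.5% and 5.21% of all genes. In the fit with the tier block 3 of 30 passed in Cbx3 arrays, all as lower, against 2.54% of all genes. Around Nr0b1, Nr5a2, Phc1 and Fgf4 the nearest neighbours differed little in Cbx3 arrays, by 0.09 for Samt3, -0.06 for Zfp281, 0.15 for M6pr and 0.04 for Fgf3. Their control means were 3.30, 9.90, 10.93 and 5.51, so Samt3 and Fgf3 stood below the array medians. Klrg1 (5.41), Lhx9 (5.23) and Mfap5 (5.01) were also below the medians in control. Other neighbours with little signal in control were Il1rapl1 (3.39), Dcaf8l (2.94), Ptprc (3.39), Mug1 (3.34), Kif14 (3.91), 5430427O19Rik (3.93) and Fgf15 (4.59). At such low signal a fall could hardly show. Around Eras 2 neighbours were lower. Pcsk1n, which encodes a prohormone convertase inhibitor, shares 135 bases with the end of Eras and runs against it on the opposite strand, and it differed by -0.75 ± 0.45 (SE; adjusted p = 0.894, and 0.0112 with the tier block). Glod5, 75.6 kb to the other side, read 9.27, 9.70 and 9.70 in control and 8.60, 8.50 and 8.17 in Cbx3 arrays, a difference of -1.14 ± 0.21 (adjusted p = 0.136, and 0.00935 with the block). The third was Pola1, a DNA polymerase gene 7110 kb from Nr0b1 (-0.65 ± 0.24, adjusted p = 0.576, and 0.0152 with the block). Hdac6, a cytoplasmic deacetylase gene 1.51 kb from Eras, differed by 0.07. Ano1, a chloride channel gene 109 kb from Fgf4, differed by 0.58 ± 0.34, higher in 3 of 3 pairs of Cbx3 and control arrays (adjusted p = 0.883, 0.0968 with the tier block and 0.0419 with the replicate block). Phc1 has Nanog, the homeodomain factor of naive pluripotency, 367 kb away on the same chromosome. Nanog read 4.87, 5.10 and 5.41 in control and 7.79, 9.28 and 8.25 in Cbx3 arrays, so it rose by 3.31 ± 0.35 (adjusted p = 0.0428) where Phc1 was lower. In the fit without a block that call was lost under each omission of 1 array (adjusted p from 0.0573 to 0.133). For Nanog the adjusted p was 0.000474 with the tier block and 0.000667 with the replicate block.

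**Figure D4:**
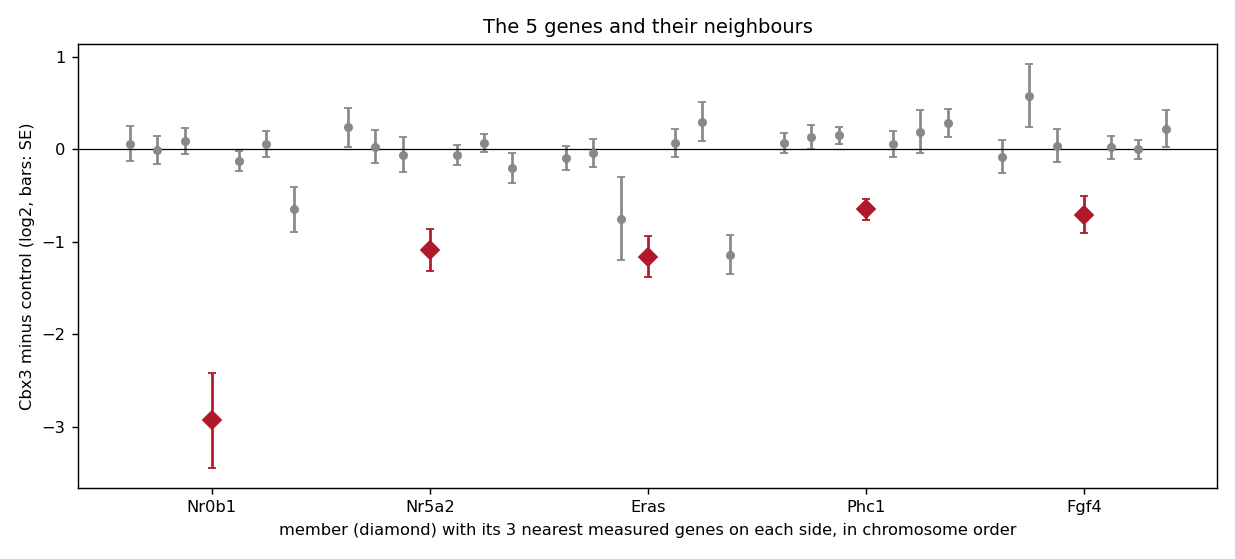
Difference between Cbx3 and control arrays on the log2 scale (bars: SE) for the 5 genes (red diamonds) and, in chromosome order, the 3 nearest measured protein-coding genes on each side of each (grey). Most grey points lie near 0, some of them for genes with little signal in control. Beside Eras, Pcsk1n and Glod5 lie at -0.75 and -1.14, the last gene of the Nr0b1 group, Pola1, at -0.65, and Ano1 of the Fgf4 group at 0.58.

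Related genes and pathway partners, taken from lists, are given by their counts. Of all genes 0.066% passed as higher and 0.055% as lower in Cbx3 arrays, and 0.0715% and 0.011% in 3XHMT arrays. With the tier block these shares were 2.25% and 2.54% in Cbx3 and 0.577% and 0.456% in 3XHMT arrays. An unadjusted p under 0.05 was found for 9.5% and 5.21% of all genes in the same order. In the pluripotency network besides the 5 genes, 1 of 45 passed as higher in Cbx3 arrays (Nanog) and 0 as lower. Whether they passed or not, 24 had a higher and 21 a lower mean than control, with a median difference of 0.01, equal to that of all genes. There 3 higher and 2 lower genes had an unadjusted p under 0.05. With the tier block 2 more passed, as lower: Lifr, a receptor of the cytokine LIF (-0.76, adjusted p = 0.00755), and Dppa2 (-0.85, adjusted p = 0.0496). In 3XHMT arrays 1 of 45 passed as higher, Dppa4 (2.56 ± 0.27, adjusted p = 0.0267), and 0 as lower. The median was 0.15 against 0.01 for all genes, and 33 of 45 had a mean above control. At an unadjusted p under 0.05 there were 9 higher and 2 lower genes. Zfp42 had the largest difference, 3.09 ± 0.46 (adjusted p = 0.109, and 0.000286 with the block). Dppa4 passed under 2 of 8 omissions (adjusted p from 0.00655 to 0.144). Nanog was 2.81 ± 0.39 higher there (adjusted p = 0.0891, and 0.00474 with the block). With the block Nanog, Zfp42, Dppa2, Dppa4, Gbx2 and Tcf15 passed as higher, 6 of 45.

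Among 30 nuclear receptors and their partners 0 passed in either comparison in limma, with 3 at an unadjusted p under 0.05 in each. The tier block gave 2 of 30 as lower in Cbx3 arrays, Ncoa1 and the glucocorticoid receptor gene Nr3c1, and 0 in 3XHMT arrays. The closest relatives of the 2 receptors differed in Cbx3 arrays by 0.11 ± 0.20 (SE) for Nr5a1 and 0.07 ± 0.18 for Nr0b2. Ncoa1, a coactivator of nuclear receptors, differed by -0.74 ± 0.16 (adjusted p = 0.194, and 0.0112 with the block), and Esrrb, an orphan receptor of the naive network, by 0.44 ± 0.14 (adjusted p = 0.453).

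In FGF and ERK signalling 0 of 31 genes passed in limma, with 0 higher and 2 lower at an unadjusted p under 0.05 in Cbx3 arrays and 1 higher and 5 lower in 3XHMT arrays. With the tier block 1 of 31 passed as lower in each, Etv4 in Cbx3 arrays and the immediate early gene Egr1 in 3XHMT arrays. Etv4, an ETS factor gene that FGF signalling induces, read 9.28, 9.24 and 9.0 in control, 8.93 and 9.25 in 3XHMT and 8.31, 8.0 and 7.92 in Cbx3 arrays. Its difference in Cbx3 arrays was -1.09 ± 0.15 (adjusted p = 0.0663, and 0.0031 with the block). Etv5, its close relative, differed by 0.21 ± 0.10 and Dusp4, an ERK phosphatase gene, by -0.45 ± 0.17 (adjusted p = 0.725 and 0.595). Among other feedback genes of the pathway, Dusp6 and Spry1 each differed by -0.44, Spry2 by -0.08 and Spry4 by 0.04.

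For Eras, of 30 genes of RAS and PI3 kinase signalling 0 passed in limma in either comparison, with 4 at an unadjusted p under 0.05 in Cbx3 arrays and 2 in 3XHMT arrays. With the tier block Pik3r3 passed as higher and Pdk1 and Rptor as lower in Cbx3 arrays, and Mras as lower in 3XHMT arrays. Pdk1, though in the list, names a pyruvate dehydrogenase kinase in mouse and is no member of this pathway. The kinase of the pathway with that protein name is Pdpk1, also listed, which differed by 0.04 in Cbx3 arrays. Nras, a canonical Ras gene, differed by -0.20 ± 0.15 in Cbx3 arrays. Rptor, which encodes the Raptor subunit of mTOR complex 1, differed by -0.62 ± 0.18 (adjusted p = 0.354, and 0.0101 with the block). Of 31 Polycomb genes 0 passed, with 4 at an unadjusted p under 0.05 in Cbx3 arrays and 2 in 3XHMT arrays. The other polyhomeotic genes differed by 0.21 ± 0.17 (Phc2) and 0.00 ± 0.24 (Phc3). Rnf2, the ubiquitin ligase of the same complex, differed by -0.54 ± 0.19 (adjusted p = 0.537, and 0.0332 with the block). With the block Rnf2 and Scml2 were the 2 Polycomb genes that passed as lower in Cbx3 arrays, and 0 passed in 3XHMT arrays. Scml2, a Polycomb-associated gene, read 6.60, 6.21 and 6.30 in control, 7.15 and 7.24 in 3XHMT and 5.65, 5.90 and 5.77 in Cbx3 arrays, with no overlap between the groups. Its differences were 0.82 ± 0.15 in 3XHMT (adjusted p = 0.213, and 0.0508 with the block) and -0.60 ± 0.13 in Cbx3 arrays (0.207 and 0.0435). Of 20 genes of H3K9 methylation and HP1, at probe sets with 1 symbol, 0 passed in limma, with 4 lower members at an unadjusted p under 0.05 in Cbx3 arrays and 3 members in 3XHMT arrays. With the tier block Kdm7a, a histone demethylase gene, passed as lower in Cbx3 arrays (-0.74, adjusted p = 0.00639).

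**Figure D5:**
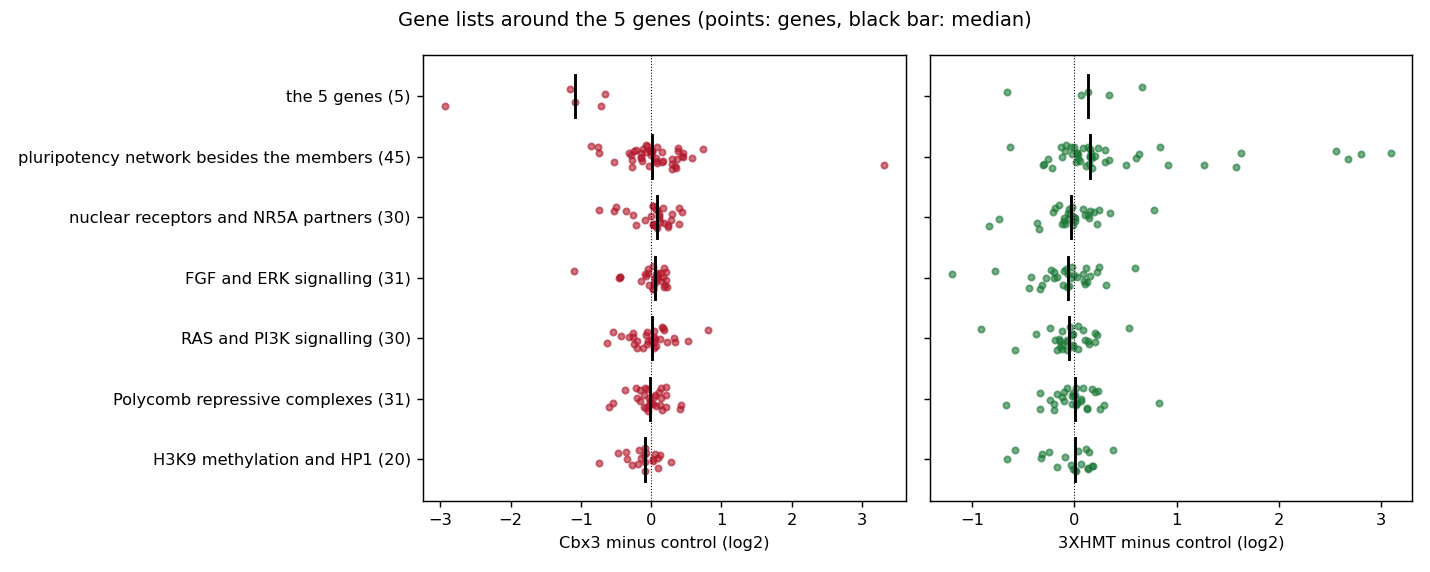
Log2 differences from control in Cbx3 (left) and 3XHMT arrays (right) for the 5 genes and for 6 lists of related genes. Each gene is a point at its brightest probe set with 1 symbol, and the median is a black bar. For Cbx3 this leaves out the brighter probe sets that also name Cbx3-ps5. The medians of the 6 lists lie between -0.09 and 0.08 in Cbx3 arrays, where the 5 genes were chosen to be low, and between -0.06 and 0.15 in 3XHMT arrays.

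Markers of other cell types were followed beside these genes. The summed linear signal of 11 trophoblast markers was 893 to 1339 in control, 971 to 1030 in 3XHMT and 1464 to 1615 in Cbx3 arrays. It was higher in each Cbx3 array than in any other. Bright markers weigh most in such a sum, and Tfap2c, the brightest here, stood at 8.35 in control and 9.16 in Cbx3 arrays. Gata2 and Gata3 differed by 0.64 and 0.52 in Cbx3 arrays. Cdx2 and Elf5, which define the lineage, stood at 6.25 and 4.46 in control and 6.43 and 4.50 in Cbx3 arrays. Of these markers 9 of 11 had a higher mean in Cbx3 than in control and 0 passed in limma, with 3 at an unadjusted p under 0.05. Of them Gata2 passed as higher in Cbx3 arrays with the tier block (0.64, adjusted p = 0.0224). The sum of fibroblast and feeder markers overlapped between all groups (2785 to 5041 in control, 3138 to 3931 in 3XHMT and 2573 to 4799 in Cbx3 arrays). S100a4, at 11.09 in control, was the brightest of them. The sum of primitive endoderm markers was 483 to 570 in control, 587 to 598 in 3XHMT and 496 to 544 in Cbx3 arrays, higher in both 3XHMT arrays than in any other. Lama1 had the largest difference among them there, at 5.71 in control and 6.59 in 3XHMT arrays. Gata4, Sox17 and Gata6 differed by -0.29, -0.14 and 0.13 in 3XHMT arrays. Of these 11 markers 8 had a higher mean in 3XHMT than in control, and 0 passed in limma. The sum of macrophage markers was 524 to 660 in control, 498 to 520 in 3XHMT and 478 to 747 in Cbx3 arrays, lower in both 3XHMT arrays than in any control array. Yet 4 of these 6 markers had a higher mean in 3XHMT than in control, and 0 passed in limma. Cd14, the brightest of the 6 in control, stood at 7.67 there and at 7.16 in 3XHMT arrays. The sum of 13 pluripotent cell markers, none of the 5 genes among them, was 13744 to 16687 in control, 16593 to 17340 in 3XHMT and 12778 to 13976 in Cbx3 arrays, overlapping with control in both knockdowns. Pou5f1, at 12.99 in control, was the brightest of these 13. The part of these markers in the values of the 5 genes was not tested.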

How the data were processed

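Total RNA was labelled with biotin and hybridised to Affymetrix arrays, per the labels' protocols. The authors deposited log2 expression values made with RMA, per the submitters' processing notes, whose version is not given in the sources used here. RMA includes quantile normalization, which removes any shift common to a whole array. Signal near background compresses differences, and the number of arrays limits precision.

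In the platform annotation 34945 probe sets have 1 symbol, 932 several and 9160 none. A single symbol was replaced by the RefSeq symbol of the same gene identifier where there was one. All 45037 probe sets other than 64 control probe sets were fitted with limma 3.58.1 in R 4.3.3 (lmFit, eBayes, two-sided, 3 group means, 5 residual degrees of freedom), with Benjamini-Hochberg adjustment over all of them and a threshold of 0.05. Every p is from this fit unless another is named. A gene stands for its brightest probe set with 1 symbol (18193 genes). Groups came from the sample titles. Promoters are from RefSeq.

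The tier of the 18S control probe set, cut at the 2 widest gaps, and the replicate number served as blocks. Replicate numbers pair control and Cbx3 arrays, whose deviations correlated by 0.51, 0.62 and 0.74, and not the 3XHMT arrays (0.05 and -0.66 with control). For control and Cbx3 arrays the tiers and the numbers give the same pairs. Other alternatives were 1 probe set a gene, only the compared groups, cyclic loess, no dim probe sets, a trended prior and leaving out each array.

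The 5 genes and the lists were chosen with earlier results of these data known. Named genes are the 5, the siRNA targets, list members by lowest p, close paralogs, 3 neighbours a side and the genes of most like pattern. Nodal, Tdgf1, Dusp6, the Spry genes, the lists' genes that only the tier block called, and the marker genes were named after their values were seen.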

Additional observations from a re-analysis of the deposited data

How the results depend on the processing

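In Cbx3 minus control, by which the genes were chosen, the difference with 1 array left out ranged from -3.42 to -2.42 for Nr0b1, -1.36 to -0.93 for Nr5a2, -1.33 to -1.02 for Eras, -0.71 to -0.61 for Phc1 and -0.93 to -0.56 for Fgf4 at the brightest probe sets. It ranged from -0.41 to -0.07 for Nr5a2 at 1449707_at and -0.41 to -0.03 for Fgf4 at 1450282_at. In 3XHMT minus control none reached the threshold except Nr0b1 with the tier block (1.08, with 1.11 without Cbx3 2, 1.03 without Cbx3 3 and 0.99 to 1.28 over all omissions of 1 array from that fit). With 1 array left out of the fit without a block, the 3XHMT difference ranged from 0.37 to 1.02 for Nr0b1, -0.82 to -0.49 for Nr5a2 and 0.02 to 0.65 for Eras. It changed sign for Phc1 (-0.06 to 0.19), for Fgf4 at 1420085_at (-0.08 to 0.33), 1420086_x_at (-0.08 to 0.30), 1449729_at (-0.07 to 0.17) and 1450282_at (-0.47 to 0.34), and for Nr5a2 at 1449707_at (-0.22 to 0.09).

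The count of all probe sets past the threshold depended on the fit. It was 25 in 3XHMT against control, 42 with 1 probe set a gene (fewer tests), 315 with the tier block, 3 with the 2 groups alone (fewer arrays), 11 without dim probe sets, 42 with a trended prior and 1 to 23 with 1 array left out (1, 3, 8, 12 and 16 without control 1, control 2, 3XHMT 1, 3XHMT 2 and Cbx3 1). In Cbx3 against control it was 35, 81 with 1 probe set a gene, 1776 with the replicate block, which pairs these arrays, 1547 with the tier block, 14 with the 2 groups alone and 0 to 14 with 1 array left out. The count was 0 without control 1, 2 or 3 or Cbx3 2 or 3, where limma gave 2549 to 3529 at an unadjusted p under 0.05, 3 without Cbx3 1 and 14 without either 3XHMT array. Cyclic loess gave 25 and 36. Probe sets with a mean below the middle of all were not tested without dim probe sets, so the dim ones of Nr5a2 and Fgf4 have no value there. Beyond fewer tests or arrays, the cause of these shifts was not tested.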
